A study of Mus musculus with 14 samples.

Results

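The genes described here are 9 neurotrophic factors, their receptors and axon guidance cues, chosen by gene name from the 55487 genes of a count table of mouse intervertebral disc (IVD) RNA. They are the ligands *Bdnf*, *Ntf3* and *Gdnf*, the receptors *Ngfr*, *Ntrk2* and *Ntrk3*, and the guidance genes *Sema3a*, *Ntn1* and *Nrp1*. Of the 9 genes, 8 passed the filter on low counts (above 1 CPM, counts scaled to library size, in at least 3 libraries) and were among the 16915 genes tested. *Gdnf* did not pass it, and *Bdnf* passed through only 3 libraries.

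RNA-seq was run on the tail IVDs of 14 male mice, with 5 discs pooled per mouse, so each library mixes nucleus, annulus and whatever tissue stayed attached. The db/db mice (n=3) are homozygous for a mutant leptin receptor gene, *Lepr*, and the db/+ mice (n=3) are heterozygous littermates that carry 1 copy of the same mutation. Both were 12 weeks old. The STZ-HFD mice (n=4, C57BL/6J, also 12 weeks old when enrolled) were fed a high-fat diet (HFD) for 4 to 6 weeks, received 1 injection of streptozotocin (STZ, a toxin of pancreatic β-cells) at 100 mg/kg, and stayed on the diet for 12 more weeks. The Con+Veh mice (n=4, the same strain, named wild type in the labels) were fed standard chow and injected with buffer only. The db/db model lacks leptin signaling in every tissue, and in the STZ-HFD model diet and toxin were always given together, so their effects cannot be told apart. The cohorts also differ in background, age and treatment history.

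Neurotrophins are secreted proteins that keep sensory and sympathetic neurons alive and make their axons grow. BDNF acts through the kinase receptor TrkB (*Ntrk2*), NT-3 acts mainly through TrkC (*Ntrk3*), and all neurotrophins bind the low-affinity receptor p75NTR (*Ngfr*), while GDNF uses the separate RET system. Netrin-1 (*Ntn1*) attracts or repels growing axons, and semaphorin 3A (*Sema3a*) repels them through neuropilin-1 (*Nrp1*), which blood vessels also use as a co-receptor for VEGF. The healthy disc is nearly free of nerves, and these cues are studied there because nerves grow into degenerating and painful discs.

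Total counts ranged from 16076908 to 58943169 per library, of which genes of ribosomal RNA type took 28.1% to 60.2%. At these totals, without the TMM scaling used for the other CPM values, 3 counts corresponded to 0.0509 to 0.187 CPM. Such floors cover counting error only. The libraries of the STZ-HFD cohort were uneven, and limma gave the lowest weights to Con+Veh 1 (0.275), STZ-HFD 1 (0.379) and Con+Veh 2 (0.462) and the highest to Con+Veh 3 (3.05). STZ-HFD 1 had the fewest counts. Summed disc and cartilage markers (8 genes, all detected) were 13740 to 23665 CPM in db/+, 5496 to 14037 in db/db, 1437 to 3385 in Con+Veh and 657 to 1348 in STZ-HFD. Summed skeletal muscle markers (10 genes) were 17772 to 21151 CPM in db/+, 7443 to 15026 in db/db, 17336 to 40113 in Con+Veh and 21058 to 58408 in STZ-HFD. In bulk RNA, fewer cells of a type and less RNA per cell cannot be told apart.

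Few of these genes passed the test in either model of diabetes. In db/db against db/+, 0 of the 8 tested genes were called at an adjusted p under 0.05 and a log2 fold change of at least 1 (limma, Benjamini-Hochberg over all genes tested). The background was 1.66% of genes called. At an unadjusted p under 0.05, 4 genes (*Ntrk2*, *Ntrk3*, *Sema3a* and *Ntf3*) had a higher level in db/db, against 21.1% of all genes tested in either direction. DESeq2 also called 0 of the 8, beside 160 genes called higher and 52 lower among all 16915. edgeR's quasi-likelihood test called 0 of all 16915 genes in this comparison, so its 0 says nothing about these 8. In STZ-HFD against Con+Veh, 1 of 8 was called, *Ntn1*, which fell, against 2.61% of genes called in either direction and 1.31% called lower. Here too 4 genes had an unadjusted p under 0.05 (limma), with *Ntn1*, *Sema3a* and *Ntrk2* lower and *Ntrk3* higher in STZ-HFD, against 17.9% of all genes tested. *Ntrk2* and *Sema3a* were called for the difference between the models, 2 of 8 against a background of 1.77%. The libraries of db/db and db/+ did not overlap for 1 of the 8 genes, *Ntrk2*, against 25.8% of all genes tested, and those of STZ-HFD and Con+Veh did not overlap for 0 of 8, against 4.74%.

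**Figure D1:**
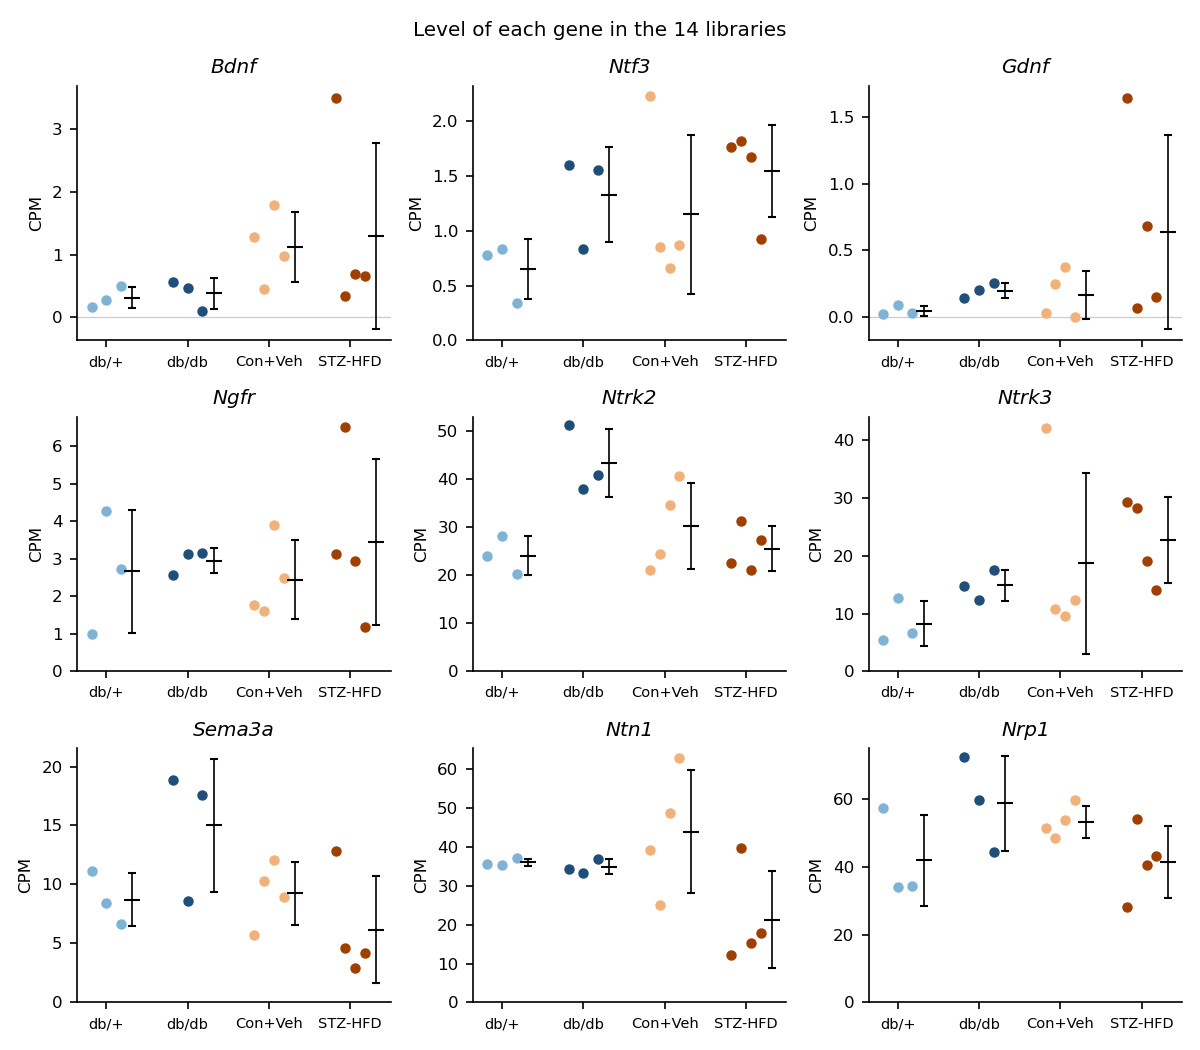
Level of each of the 9 genes in CPM (TMM-scaled, linear axes) in the 14 libraries. Points are libraries, 1 mouse each, and the bar beside them is the mean ± SD of the group (n=3 for db/+ and db/db, n=4 for Con+Veh and STZ-HFD). *Ntrk2* separated db/db from db/+, and *Ntn1* was at 12.1 to 17.8 CPM in 3 of 4 STZ-HFD libraries.

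Compared per kilobase of all annotated exons, *Ntn1* and *Nrp1* were the most abundant of the 9 transcripts in every group and *Gdnf* the least. In db/+ the mean level was 5.73 ± 0.15 CPM per kb for *Ntn1* and 4.29 ± 1.38 for *Nrp1* (SD, n=3), which did not differ beyond their spread. *Ntrk2* followed at 1.25 ± 0.21 CPM per kb, clear of *Nrp1*. *Ngfr* (0.773 ± 0.473), *Sema3a* (0.628 ± 0.163), *Ntf3* (0.380 ± 0.158) and *Ntrk3* (0.274 ± 0.128) came next in db/+, and no neighbours among them differed beyond their spread. *Bdnf* (0.050 ± 0.027) and *Gdnf* (0.013 ± 0.010) were lowest. In the other groups the first 3 places held the same 3 genes and the last 2 places *Bdnf* and *Gdnf*. In STZ-HFD no gene was clear of its neighbour by the spread between mice. The order depends on the annotation, as the exons counted span 19292 bases for *Ntrk2*, 30170 for *Ntrk3* and 6277 for *Ntn1*. By CPM without length, *Ntrk2* (mean 43.3) lay above *Ntn1* (34.8) in db/db.

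The ligands were scarce. *Bdnf* (ENSMUSG00000048482) lies on chromosome 2 (109674700 to 109727007, GRCm38, the build of all positions given). Its counts were 8, 16 and 32 in db/+ and 36, 33 and 7 in db/db. It had 47, 22, 38 and 18 counts in Con+Veh and 85, 10, 22 and 22 in STZ-HFD. The groups overlapped in both models, and the highest count came from STZ-HFD 1, the library with the fewest counts in all. The estimated log2 change was 0.11 ± 0.85 (SE) for db/db and −0.80 ± 0.63 for STZ-HFD (limma, Benjamini-Hochberg adjusted p = 0.96 and 0.55). Neither sign was stable. For STZ-HFD the value was 0.20 with edgeR, 0.23 with DESeq2, −0.13 without library weights and −2.52 from transcript totals, and for db/db it was −0.20 with the GC trend of each library removed and −0.24, −0.27 and −0.19 without db/+ 1, db/db 1 and db/db 2. An annotated gene on the opposite strand, *Gm45346*, covers 14.4% of the exonic bases of *Bdnf*, and whether counting used strand is not given in the sources used here, so some of these few counts could belong to either gene.

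*Ntf3*, which encodes NT-3 (ENSMUSG00000049107, chromosome 6 from 126101412 to 126166910), stood at 0.780, 0.835 and 0.342 CPM in db/+ and at 1.605, 0.833 and 1.555 in db/db. Only db/db 2 lay within the db/+ range. Limma estimated a log2 fold change of 1.03 ± 0.48 (SE) with an adjusted p of 0.23 (Benjamini-Hochberg). In Con+Veh it stood at 2.23, 0.852, 0.658 and 0.869 CPM and in STZ-HFD at 1.77, 1.82, 1.68 and 0.922. All libraries of STZ-HFD lay above 3 of the 4 Con+Veh libraries and below Con+Veh 1. The log2 fold change there was 0.71 ± 0.54, with an adjusted p of 0.53.

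*Gdnf* (ENSMUSG00000022144, chromosome 15 from 7810846 to 7837575) was near the limit of detection. It had 1, 5 and 2 counts in db/+ and 9, 14 and 16 in db/db, so these libraries did not overlap, yet with no filter on low counts its adjusted p was 0.37 (limma, Benjamini-Hochberg over 46963 genes). In Con+Veh it had 1, 12, 8 and 0 counts, and in STZ-HFD it had 40, 2, 22 and 5. The 0 in Con+Veh 4 allows up to 0.129 CPM at its total counts, without TMM scaling. The 40 counts again came from STZ-HFD 1.

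Among the receptors, *Ntrk2*, the gene of TrkB, separated the db groups most clearly. The gene (ENSMUSG00000055254, chromosome 13 from 58806569 to 59133970) encodes a full-length receptor with an intracellular kinase and shorter receptors without it. The coding sequences of transcripts Ntrk2-202 (without the kinase) and Ntrk2-201 (full-length) are the same up to base 1394 and part there, each running into its own exon. They are shown because reads over the capitals tell the forms apart. Lower case marks the last 30 shared bases, and capitals mark the bases of each form after the split, for Ntrk2-202 the whole remaining coding end with its stop codon (chr13:58932024-58932060, plus strand) and for Ntrk2-201 the first 45 bases (chr13:58985803-58985847, plus strand), from GENCODE M21 on GRCm38.
Ntrk2-202: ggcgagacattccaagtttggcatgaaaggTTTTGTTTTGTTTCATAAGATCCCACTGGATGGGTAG
Ntrk2-201: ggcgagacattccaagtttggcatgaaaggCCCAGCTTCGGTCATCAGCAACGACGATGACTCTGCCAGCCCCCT

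*Ntrk2* stood at 23.9, 28.2 and 20.1 CPM in db/+ and at 51.3, 37.8 and 40.7 in db/db. Every db/db library was above every db/+ library. The level in db/db was 1.77-fold that in db/+ (log2 0.82 ± 0.23, SE), with an adjusted p of 0.065 (limma, Benjamini-Hochberg). It missed the threshold on p and the log2 minimum of 1. With no filter on low counts the adjusted p was 0.034 (limma, log2 0.86), so there only the minimum of 1 barred a call. Over all alternatives that kept every library or left out the RIP libraries, the log2 value was 0.82 to 0.95. Adjusted p was 0.018 to 0.32 there (Benjamini-Hochberg). The log2 value stayed between 0.70 and 0.97 when any of the 14 libraries was left out, and it was 0.85 with the GC trend of each library removed. Of 8 adipocyte markers 4 were called higher in db/db, while *Cfd* averaged 215 CPM in db/+ and 142 in db/db and the sums overlapped (229 to 481 CPM in db/+ and 399 to 718 in db/db), and their part in the *Ntrk2* value was not tested.

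In Con+Veh *Ntrk2* stood at 21.1, 24.4, 34.6 and 40.5 CPM and in STZ-HFD at 22.5, 31.1, 21.1 and 27.4. These groups overlapped, with a log2 fold change of −0.46 ± 0.20 and an adjusted p of 0.23.

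The change in STZ-HFD minus that in db/db was −1.28 ± 0.30 (SE, log2) for *Ntrk2*, with an adjusted p of 0.041 (limma, Benjamini-Hochberg). This call was lost with edgeR's quasi-likelihood test (−1.09, adjusted p = 0.28), with DESeq2 (−1.08, adjusted p = 0.13), with the GC trend removed (−1.26, adjusted p = 0.059), without library weights (−1.04, adjusted p = 0.31), with either other filter on low counts, with transcript totals, without the RIP libraries and when any 1 library other than Con+Veh 1, Con+Veh 2 and STZ-HFD 1 was left out, with adjusted p of 0.054 to 0.19. Its sign held throughout.

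The *Ntrk2* RNA of the disc came almost wholly from the form without the kinase. Over all libraries Ntrk2-202 took 97.9% of the Salmon estimates of coding *Ntrk2* transcripts, and between 95.3% and 100% in a single library. The full-length forms Ntrk2-201 and Ntrk2-207 together took 0%, 1.00% and 0% in db/+ and 0.085%, 0% and 0.682% in db/db. They took 0%, 0%, 1.00% and 0% in Con+Veh and 0.871%, 1.45%, 0.462% and 0% in STZ-HFD. At most 6.06 estimated reads in a library were full-length, of 134 to 1297 coding reads. A library with 0 full-length reads allows a share of up to 1.21% at its depth in Con+Veh 4 and 0.306% in db/db 2, counting error only. The mean share differed by −0.079 percentage points between db/db and db/+ (two-sided exact permutation test, p = 1, smallest possible 0.10). It differed by 0.446 percentage points between STZ-HFD and Con+Veh (exact permutation test, p = 0.37, smallest possible 0.029). A difference in the full-length share was not detectable at this depth. Scaled to the sum of all transcript estimates, Ntrk2-202 itself stood at 58.4, 64.2 and 53.1 CPM in db/+ and at 148.2, 112.7 and 94.4 in db/db, so the db groups did not overlap in this form either.

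**Figure D2:**
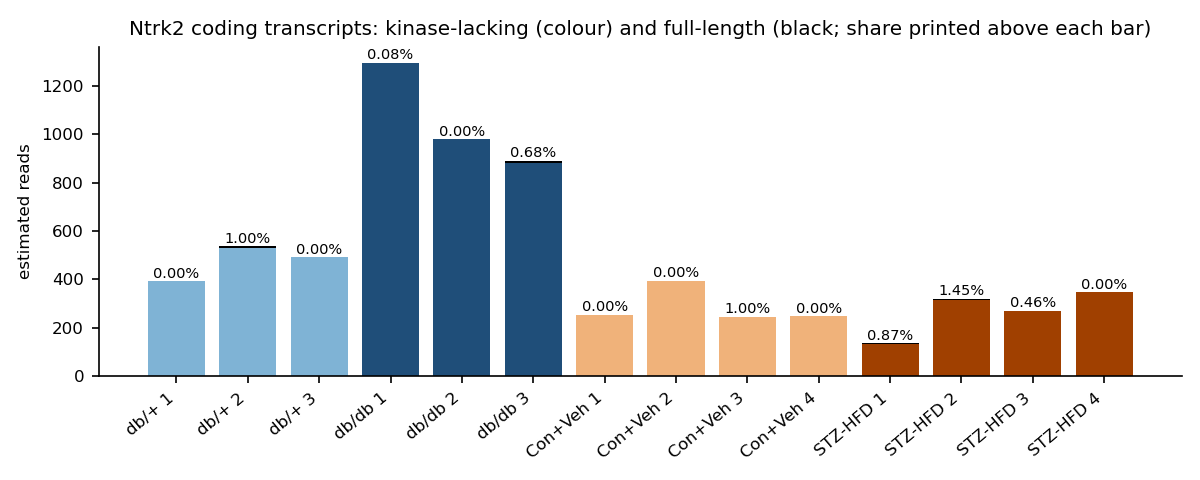
Salmon estimates of coding *Ntrk2* transcripts in each library (reads, linear axis, not scaled for depth). Colour marks transcripts with a shorter coding sequence, nearly all of them Ntrk2-202, and black the full-length ones, whose share is printed above each bar. The full-length share was at most 1.45% in any of the 14 libraries.

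*Ntrk3*, the gene of TrkC (ENSMUSG00000059146, chromosome 7 from 78175959 to 78738012), stood at 5.48, 12.7 and 6.68 CPM in db/+ and at 14.7, 12.3 and 17.6 in db/db. Of the db/db libraries only db/db 2 lay below the highest db/+ library. Its log2 change was 0.87 ± 0.35 (SE) with an adjusted p of 0.16 (limma, Benjamini-Hochberg). In Con+Veh *Ntrk3* stood at 42.0, 10.7, 9.54 and 12.4 CPM and in STZ-HFD at 29.3, 28.3, 19.1 and 14.1. All STZ-HFD libraries lay above 3 of the Con+Veh libraries and below Con+Veh 1, as they did for its ligand gene *Ntf3*. Here the log2 change was 0.72 ± 0.32, with an adjusted p of 0.25. The difference between the models was −0.15 ± 0.48.

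The full-length share of *Ntrk3* could not be measured well. Its estimates summed to 14.3 to 170 coding reads per library, and 1 of the 20 annotated transcripts of the gene was not analysed here. Within the 19 that were, the full-length share ranged from 0% to 59.2% in db/+, 0% to 22.4% in db/db, 0% to 56.9% in Con+Veh and 0% to 86.3% in STZ-HFD. Groups overlapped over nearly their whole range, and exact permutation tests gave p = 0.70 and p = 0.83.

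*Ngfr*, the gene of p75NTR and a gene of Schwann cells as well as neurons (ENSMUSG00000000120, chromosome 11 from 95568818 to 95587735), stood at 1.01, 4.26 and 2.72 CPM in db/+ and at 2.56, 3.12 and 3.16 in db/db. In Con+Veh it stood at 1.77, 1.60, 3.90 and 2.50 CPM and in STZ-HFD at 3.12, 6.50, 2.95 and 1.19. The groups overlapped in both models, with log2 fold changes of 0.29 ± 0.47 (SE) and −0.29 ± 0.53 and adjusted p of 0.77 and 0.82 (limma, Benjamini-Hochberg). The sign in STZ-HFD was not stable, with a log2 value of 0.50 with edgeR, 0.53 with DESeq2, 0.44 without library weights, 0.37 without the RIP libraries, 0.22 without Con+Veh 3 and 0.44 without STZ-HFD 4. In db/db it turned to −0.18 without db/+ 1. Summed Schwann cell markers (10 genes, all detected) spread as widely within groups, from 522 to 2835 CPM in db/+, 588 to 1102 in db/db, 354 to 2735 in Con+Veh and 525 to 2207 in STZ-HFD. The highest library for *Ngfr* and for these markers was the same in db/+ (db/+ 2) and STZ-HFD (STZ-HFD 2) but not in db/db and Con+Veh. Their part in the *Ngfr* values was not tested. Sensory axon markers were sparse, with 5 of 12 (*Calca*, *Tac1*, *Nefl*, *Trpv1* and *Gap43*) under the filter and sums of 10.1 to 25.6 CPM in the db groups and 23.1 to 57.4 in the other cohort.

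Of the guidance genes, *Ntn1* gave the only call within a model. Netrin-1 mRNA (ENSMUSG00000020902, chromosome 11 from 68209364 to 68400823) was almost level in the db groups, at 35.5, 35.4 and 37.0 CPM in db/+ and 34.4, 33.2 and 36.9 in db/db. These libraries overlapped within a narrow range. Limma estimated a log2 fold change of −0.04 ± 0.28 (SE), with a 95% interval of −0.64 to 0.55, and 0.39 with the GC trend removed (Benjamini-Hochberg adjusted p = 0.95 and 0.45). In Con+Veh *Ntn1* stood at 39.3, 25.1, 48.6 and 62.7 CPM, and in STZ-HFD at 12.1, 39.6, 15.4 and 17.8. STZ-HFD 1, 3 and 4 were below every Con+Veh library, and STZ-HFD 2 was within their range. *Ntn1* fell 2.65-fold in STZ-HFD in limma's weighted fit (log2 −1.41 ± 0.25, SE), with an adjusted p of 0.0090 (limma, Benjamini-Hochberg).

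The direction of the *Ntn1* change held in every alternative run, with log2 values from −1.60 to −1.03, but the call did not. It was lost with edgeR's quasi-likelihood test (−1.05, adjusted p = 0.23), with DESeq2 (−1.03, adjusted p = 0.088) and without library weights (−1.12, adjusted p = 0.21). With limma and no filter on low counts (−1.17, adjusted p = 0.085), with transcript totals and with GC removal plus edgeR it was lost too. Leaving out Con+Veh 3 (adjusted p = 0.16), Con+Veh 4 (0.10), STZ-HFD 3 (0.14) or STZ-HFD 4 (0.071) also lost it. In the same comparison 5 of 8 disc and cartilage, 3 of 8 macrophage, 2 of 8 annulus and tendon fibroblast and 2 of 8 osteoblast and osteocyte markers were called lower. Called higher were 5 of 10 skeletal muscle markers and 1 of 8 adipocyte markers, beside 2.61% of all genes called in either direction. Their part in the *Ntn1* value was not tested. STZ-HFD 2, where *Ntn1* was high, lay inside the range of the other STZ-HFD libraries for disc and muscle markers (845 and 47803 CPM). It was the highest of them for annulus and tendon fibroblast (3197 CPM), osteoblast and osteocyte (2462), macrophage (184), endothelial (585), pericyte and smooth muscle (3458), Schwann cell (2207) and erythroid markers (82.6). It was the lowest for nucleus pulposus and notochord markers (3546 CPM). *Col1a1*, at up to 2219 CPM in STZ-HFD, is in both the annulus and the osteoblast list, so these sums are not independent. The change of *Ntn1* in STZ-HFD minus that in db/db was −1.36 ± 0.38 (SE), which missed the threshold at an adjusted p of 0.072 and passed it with the GC trend removed (−1.64, adjusted p = 0.030; limma, Benjamini-Hochberg).

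**Figure D3:**
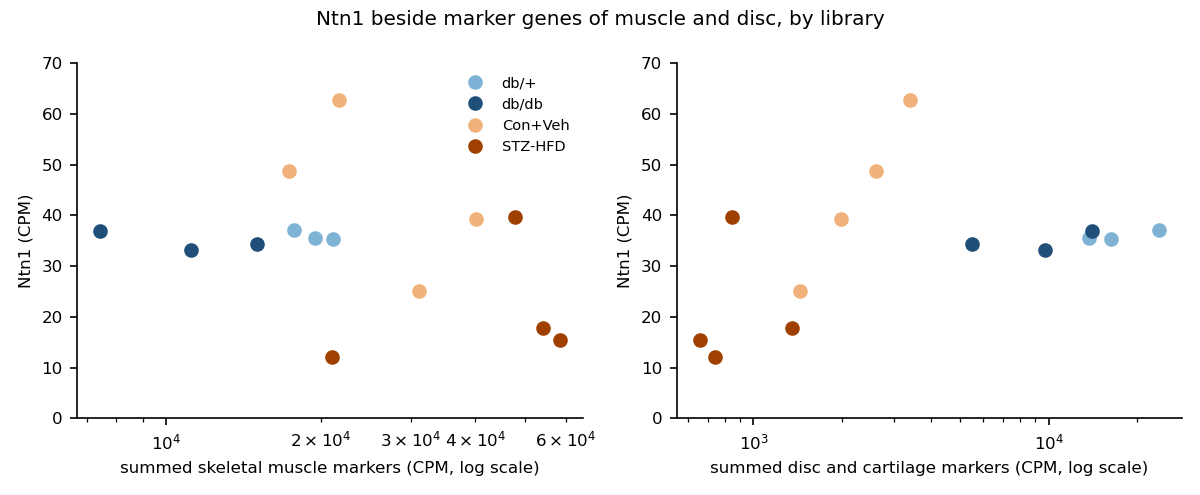
*Ntn1* (CPM, linear axis) against the summed skeletal muscle markers (left) and the summed disc and cartilage markers (right) of the same library (CPM, log axes), with 1 point per library coloured by group. The disc markers of the STZ-HFD cohort were 657 to 3385 CPM, below the 5496 to 23665 CPM of the db cohort, while *Ntn1* was 33.2 to 37.0 CPM in all 6 libraries of the db cohort.

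*Sema3a*, the repellent ligand (ENSMUSG00000028883, chromosome 5 from 13125414 to 13602565), had estimates of opposite sign in the models. It stood at 11.1, 8.43 and 6.61 CPM in db/+ and at 18.9, 8.56 and 17.6 in db/db, where db/db 1 and 3 lay above all db/+ libraries. This gave a log2 fold change of 0.72 ± 0.32 (SE) with an adjusted p of 0.21 (limma, Benjamini-Hochberg). In Con+Veh it stood at 5.68, 10.3, 12.0 and 8.96 CPM and in STZ-HFD at 12.9, 4.64, 2.95 and 4.22. STZ-HFD 1 was higher than every Con+Veh library and the other 3 were lower than every one. For STZ-HFD the log2 fold change was −1.34 ± 0.37, with an adjusted p of 0.054, and without STZ-HFD 1 it was −1.51 with an adjusted p of 0.034. It was also called without Con+Veh 1 (adjusted p = 0.036) and without db/db 2 (0.033). It was −0.59 with edgeR (adjusted p = 0.58), −0.56 with DESeq2 (0.59), −0.80 without library weights (0.53), and −1.07 and −1.01 without Con+Veh 3 and STZ-HFD 3 (0.51 and 0.47).

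Gene counts and transcript estimates stood further apart in STZ-HFD 1 than elsewhere. *Sema3a* had 313 gene counts but 37 estimated transcript reads there, a ratio of 8.46, while the ratio was 2.35 to 3.97 in the other 13 libraries. The median ratio over genes was 4.71 in STZ-HFD 1 and 3.17 to 3.45 elsewhere. *Bdnf* (85 counts) and *Gdnf* (40 counts) had 0 estimated transcript reads in STZ-HFD 1, and *Ntrk3* had 713 counts but 18 estimated reads. For *Bdnf*, 1 of the 11 annotated transcripts was not analysed here, so its 0 does not cover the whole gene. With gene totals taken from the transcript estimates, the log2 fold change of *Sema3a* in STZ-HFD was −1.43 (limma, Benjamini-Hochberg adjusted p = 0.12).

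The difference between the models for *Sema3a* was −2.06 ± 0.49 (SE, log2), with an adjusted p of 0.041 (limma, Benjamini-Hochberg). Its sign held in every alternative run, but its size did not. It was −1.37 with edgeR's quasi-likelihood test (adjusted p = 0.40) and −1.36 with DESeq2 (adjusted p = 0.31), and the call was kept without Con+Veh 1, STZ-HFD 1 or db/db 2 but lost without any other single library (adjusted p of 0.052 to 0.20). With the GC trend of each library removed it was −1.63 (adjusted p = 0.11). In db/db against db/+, fold changes over all genes fell with GC content (Spearman rho −0.43 across 16899 genes, which are not independent replicates), against −0.081 in STZ-HFD. The longest transcripts of *Sema3a* and *Nrp1* have 40.8% and 41.9% GC. With the trend removed the db/db log2 fold changes of these genes went from 0.72 to 0.34 and from 0.50 to 0.22. *Bdnf* (40.9% GC) went from 0.11 to −0.20 and *Ntrk3* (43.6%) from 0.87 to 0.67. *Ntrk2* (48.6%) went from 0.82 to 0.85 and *Ntf3* (48.9%) from 1.03 to 1.07. *Ntn1* (57.8%) went from −0.04 to 0.39 and *Ngfr* (58.6%) from 0.29 to 0.70.

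*Nrp1*, the binding receptor of semaphorin 3A (ENSMUSG00000025810, chromosome 8 from 128358604 to 128503363), stood at 57.5, 34.1 and 34.4 CPM in db/+ and at 72.4, 59.9 and 44.4 in db/db. In Con+Veh it stood at 51.4, 48.5, 53.8 and 59.7 CPM and in STZ-HFD at 28.2, 54.2, 40.5 and 43.2. The db groups overlapped through db/+ 1, and STZ-HFD 2 alone lay inside the Con+Veh range. The log2 fold changes were 0.50 ± 0.25 (SE) and −0.39 ± 0.21, with adjusted p of 0.25 and 0.35 (limma, Benjamini-Hochberg), and the difference between the models was −0.89 ± 0.32 (adjusted p = 0.16). Summed endothelial markers, from cells that also make neuropilin-1, were 201 to 282 CPM in db/+ and 305 to 375 in db/db, and 278 to 986 in Con+Veh and 261 to 585 in STZ-HFD. *Kdr*, a VEGF receptor gene, alone ranged from 12.1 to 649 CPM in Con+Veh and from 27.3 to 219 in STZ-HFD, and without it the mean sum of the other 8 markers was 306 CPM in Con+Veh and 355 in STZ-HFD. Their part in the *Nrp1* values was not tested.

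**Figure D4:**
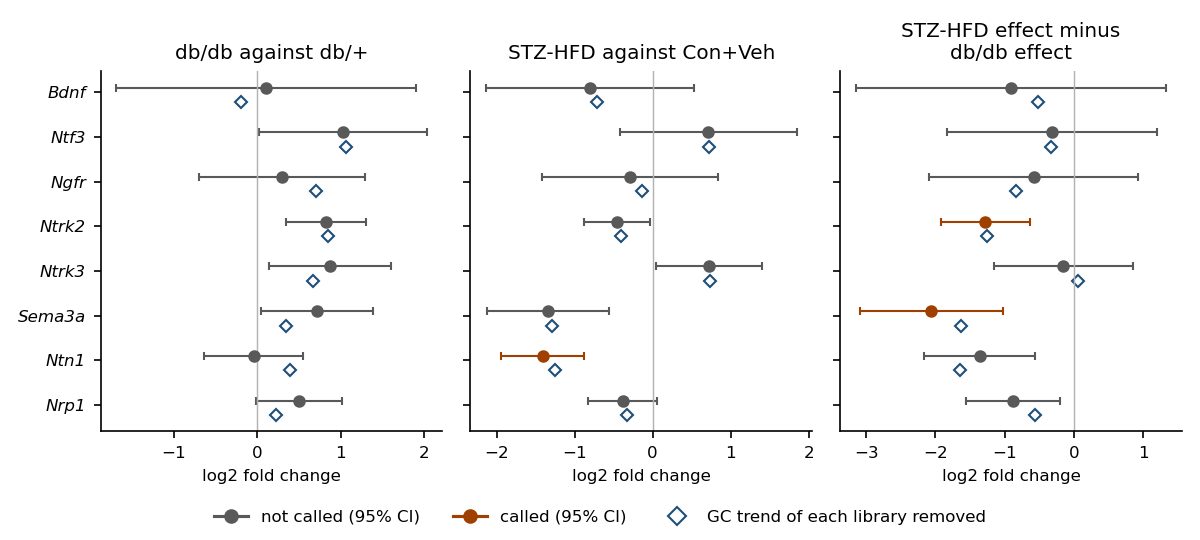
Log2 fold changes of the 8 tested genes in db/db against db/+ (left), in STZ-HFD against Con+Veh (middle), and the second minus the first (right). Circles with bars are limma estimates with 95% confidence intervals, brown where called, and diamonds are the values with the GC trend of each library removed. In the right panel all 8 circles lay below 0.

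In limma's weighted fit the change in STZ-HFD was lower than that in db/db for all 8 tested genes, with a median difference of −0.90 (log2) beside −0.03 over all genes tested. The sign held in every alternative run for *Ntrk2*, *Sema3a*, *Ntn1* and *Nrp1*. It turned in at least 1 for *Ngfr* (up to 0.36, with DESeq2), *Ntrk3* (up to 0.57, from transcript totals), *Ntf3* (up to 0.08, without db/+ 3) and *Bdnf* (up to 0.07, with edgeR after GC removal). Their median log2 fold change was 0.61 in db/db and −0.42 in STZ-HFD, beside −0.04 in both comparisons over all genes tested. For *Bdnf*, *Ntf3*, *Ngfr* and *Ntrk3* the 95% interval of the difference held 0.

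The other genes of these pathways were counted from 7 lists, from trophic ligands to Eph receptors. Of 90 further genes, 77 were tested, and 1 was called in db/db (lower) and 2 in STZ-HFD (both lower), beside 14 and 18 at an unadjusted p under 0.05. Over all genes tested 21.1% and 17.9% passed that unadjusted threshold, so the counts in these lists were near the background. Their median log2 fold change was −0.24 in either model. The counts of each list below include the genes described above. Of the 9 ligands of the neurotrophin and GDNF families, *Gdnf*, *Artn* and *Pspn* were under the filter and 0 of the other 6 were called in either model (limma, with 1 and 2 at an unadjusted p under 0.05), and 0 of the 12 receptors tested were called (limma, with 2 at an unadjusted p under 0.05 in db/db and 3 in STZ-HFD). Among 13 netrins and netrin receptors, *Ntn5* and *Dcc* were under the filter. *Ntn4*, a basement membrane netrin, stood at 11.7 to 17.4 CPM in Con+Veh and 5.57 to 9.28 in STZ-HFD with no overlap and fell by 1.08 on the log2 scale (SE 0.28, adjusted p = 0.040; limma, Benjamini-Hochberg). With the GC trend removed the adjusted p was 0.056. Its log2 fold change in db/db was 0.06 ± 0.26.

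In the list of class 3 semaphorins, neuropilins and plexins, with 14 of 14 genes tested, *Sema3d*, a secreted semaphorin, fell by 1.83 on the log2 scale in STZ-HFD (SE 0.30, adjusted p = 0.0057; limma, Benjamini-Hochberg). It stood at 17.7, 19.3, 29.2 and 36.2 CPM in Con+Veh and at 12.4, 10.4, 6.65 and 8.38 in STZ-HFD, again with no overlap. Its change in db/db was −0.25 ± 0.30, and the difference between the models missed the threshold (−1.58 ± 0.43, adjusted p = 0.065). Among 17 other semaphorins and plexins, *Sema6c*, a transmembrane semaphorin, stood at 12.9, 12.3 and 11.1 CPM in db/+ and at 6.47, 3.89 and 3.57 in db/db, and fell by 1.44 on the log2 scale (SE 0.36, adjusted p = 0.0496). It stood at 8.64, 7.54, 8.18 and 16.3 CPM in Con+Veh and at 15.2, 37.6, 25.9 and 13.2 in STZ-HFD, where the log2 fold change was 1.04 ± 0.32 (adjusted p = 0.083). The difference between the models for *Sema6c* was 2.48 ± 0.48 (adjusted p = 0.022). With the GC trend removed *Sema6c* was not called in db/db (−0.95, adjusted p = 0.17). All 10 skeletal muscle markers had lower estimates in db/db (1 called) and higher ones in STZ-HFD (5 called), and their part in the *Sema6c* values was not tested. Slits, Robos and repulsive guidance molecules (10 genes, of which *Robo3* and *Draxin* were under the filter) and ephrins and Eph receptors (22 genes, of which *Efna2*, *Efna3*, *Efnb3*, *Epha6* and *Epha10* were under it) had 0 calls in either model (limma), with 1 and 3 genes at an unadjusted p under 0.05 in db/db and 2 and 0 in STZ-HFD.

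**Figure D5:**
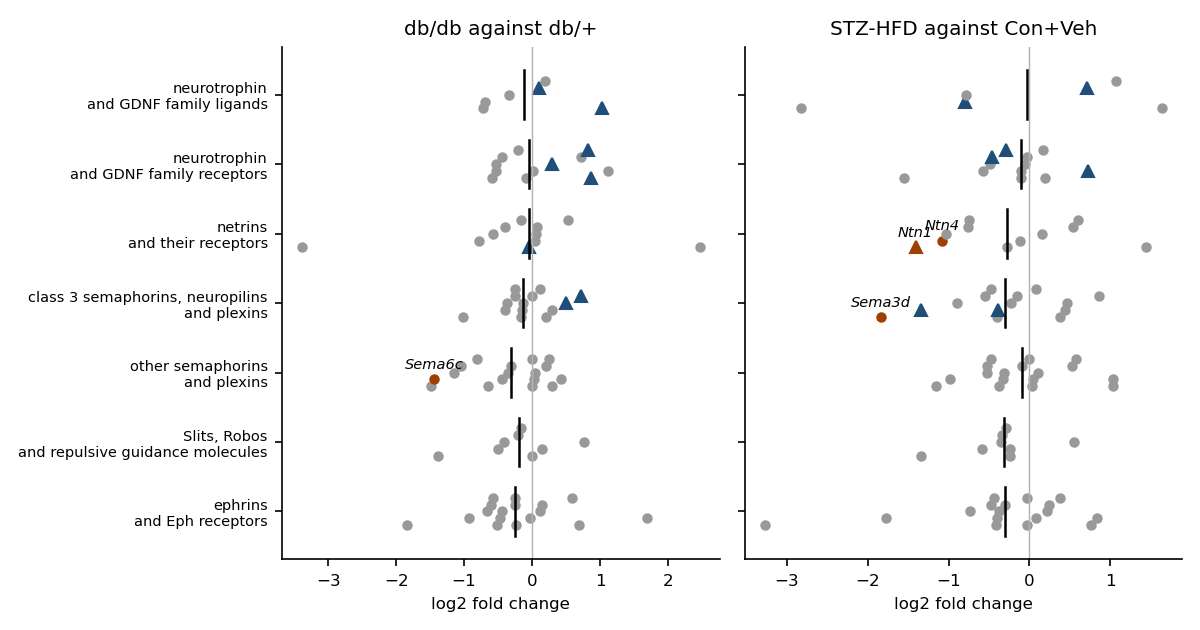
Log2 fold changes of the tested genes of the 7 pathway lists in both models. Triangles are the genes described above, circles the other genes of each list, brown marks called genes with their names, and black bars are list medians. The called genes were *Sema6c* in db/db and *Ntn1*, *Ntn4* and *Sema3d* in STZ-HFD, and all 4 lay below 0.

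For each of the 8 genes, the 3 protein-coding genes with the most similar pattern were found by Pearson's r of log2 CPM over the 14 libraries, which share cohort, depth and tissue make-up. For *Ntrk3* these were *Msx2* (r = 0.91), *Stk32a* (0.87) and its own ligand gene *Ntf3* (0.87). The last pair had r = 0.76 within the 6 libraries of the db cohort and 0.96 within the 8 of the STZ-HFD cohort. Con+Veh 1, the library with the lowest weight, was the highest of these 8 for *Ntf3* (2.23 CPM) and *Ntrk3* (42.0 CPM). Its part in the r of 0.96 was not tested. *Ntf3* was closest to *Lmo1* (0.92), *Tusc2* (0.88) and *Mrgprh* (0.88). For *Ntrk2* they were the matrix gene *Postn* (0.88), *Apod* (0.85) and *Cd34* (0.83). *Ngfr* was closest to *Fa2h* (0.83), *Nr4a2* (0.82) and *Gjb1* (0.82), of which *Fa2h* and *Gjb1* are known in myelinating Schwann cells. *Ntn1* was closest to *Tgfbr2* (0.94), *Arhgap1* (0.93) and *Klf4* (0.92), but for *Tgfbr2* r was 0.14 within the db cohort, where *Ntn1* was almost level, and 0.96 within the other. *Sema3a* was closest to *Gbgt1* (0.93), *Steap2* (0.89) and *Ikbip* (0.88), *Nrp1* to *Ldb2* (0.87), *Selenop* (0.83) and *Plk2* (0.82), and *Bdnf*, at its few counts, to *Nod2* (0.92), *Cfap45* (0.89) and *Bicd1* (0.88).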

How the data were processed

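The 9 genes, the pathway and marker lists and the tests were chosen with earlier results of these data known. The authors aligned reads with STAR to Ensembl release 101 (GRCm38) and deposited gene counts from featureCounts, whole numbers without normalization. Per the labels, the libraries were made with the SeqPlex amplification kit. The authors also deposited estimated counts per transcript from Salmon, on which the isoform shares and 1 alternative rest; gene totals from them were rounded to whole numbers. Of 55774 lines in the gene table, 287 repeat an identifier with the same values and were used once. Positions, exon and coding lengths and GC content came from GENCODE M21.

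Counts were scaled with TMM factors (edgeR 4.0.16 in R 4.3.3) and filtered at a CPM above 1 in at least 3 libraries. limma 3.58.1 (voomWithQualityWeights, after the study's methods) was fitted with 1 mean per group over the 14 libraries, and p-values were adjusted by Benjamini-Hochberg over all 16915 genes. CPM in the text are TMM-scaled. Genes named are the 9, each other pathway gene called, the listed ligands, guidance genes and sensory axon markers under the filter, and the 3 genes most like each of the 8 by r. Single markers and an overlapping gene are also named where they bear on a value. Some listed items are not reported here. A full-length transcript has a coding sequence of at least 80% of the longest. By the labels and methods, every library came from its own mouse. The fit was tested on simulated data. Alternatives were edgeR, DESeq2 1.42.0, unweighted voom, RLE factors, other filters, each model alone, a replicate block, transcript totals, GC trend removal, no fold change minimum, leaving out each library, and leaving out 2 libraries whose names end in RIP, a suffix the sources used here do not explain. GC removal combined with edgeR or without the RIP libraries, and leaving out transcripts with an incomplete coding sequence, were added after seeing the data.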

Additional observations from a re-analysis of the deposited data

Results flagged for a closer look

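Of 18 sets of 4 libraries (9 genes in Con+Veh and in STZ-HFD), 5 held a library far from the other 3 by Dixon's test. Chance gives about 1 in 20 for independent sets of normal values. These sets share the same libraries and some of the genes vary together, so the 5 cannot be compared with that rate. STZ-HFD 1 was the high library for *Bdnf* (3.49 CPM) and *Sema3a* (12.9 CPM), Con+Veh 1 was the high library for *Ntf3* (2.23 CPM) and *Ntrk3* (42.0 CPM), and STZ-HFD 4 was the low library for *Ntf3* (0.922 CPM). The changes in the models differed by limma's test of the difference itself for *Sema3a* (−2.06, log2, STZ-HFD minus db/db), *Ntrk2* (−1.28) and, among the other pathway genes, *Sema6c* (2.48).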

How the results depend on the processing

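No called value changed sign under the alternatives run. Of the recomputed values for single genes, 593 stayed on the same side of the threshold, 52 became weaker and 9 stronger. Most of the 593 belong to values not called in the text, and uncalled values that changed sign are among them. All 52 were lost calls. *Ntn1* in STZ-HFD lost its call in 10 runs, of 14 without 1 library and 14 others. *Ntrk2* and *Sema3a* each lost the call for the difference in 21 runs, of 14 without 1 library and 13 others. The count of the 9 genes called in STZ-HFD (1 in the text) was 0 with edgeR, DESeq2, voom without weights, no filter, transcript totals, and GC removal with edgeR. Those called for the difference between the models (2) numbered 0 with these 6 settings, with filterByExpr and without the RIP libraries, and 1 with GC removal, with all libraries or without the RIP libraries, which was *Ntn1* and neither of the 2. Of the other pathway genes, the 1 call in db/db became 0 with edgeR, voom without weights, filterByExpr, transcript totals and each of the 3 settings with GC removal, and 2 with each model fitted alone. The 2 in STZ-HFD became 0 with edgeR, voom without weights, no filter, transcript totals and GC removal with edgeR, 1 with filterByExpr and without the RIP libraries, and 7 with DESeq2. The causes were not tested. Leaving out 1 library gave 0 calls of the 9 genes in db/db each time, 0 to 2 in STZ-HFD, 0 to 2 for the difference, and 0 to 1 and 0 to 3 of the other pathway genes in db/db and STZ-HFD.

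Same-numbered libraries of the groups compared did not deviate together (r of −0.28 to 0.19 in the db cohort and −0.26 to −0.04 in the STZ-HFD cohort). With so few libraries, each centred on its group mean, this cannot exclude a pairing. With the replicate block, 1 of the 9 genes was called in db/db (*Ntrk3*, log2 1.11), 3 for the difference, and 4 other pathway genes in db/db. Over all genes, 208 were called higher and 73 lower in db/db and 220 and 221 in STZ-HFD. These were 572 and 394, and 222 and 377, with the block, 0 and 0, and 6 and 23, with edgeR (1891 and 2136 genes at an unadjusted p under 0.05), 160 and 52, and 123 and 154, with DESeq2, and 126 and 19, and 196 and 168, with GC removal. Without Con+Veh 3 there were 3 and 14 in STZ-HFD, and without db/+ 2 there were 12 and 9 in db/db. Depth limits *Bdnf* and *Gdnf* most, with at most 85 and 40 counts, and *Bdnf* had no value without Con+Veh 1, Con+Veh 3 or STZ-HFD 1, where it missed the filter.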
